A study of Mus musculus with 6 samples.

Results

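The genes described here encode the machinery through which a hepatocyte passes newly made proteins into the endoplasmic reticulum (ER), trims their signal peptides and attaches their first sugars. They were chosen by name, with earlier results of these data known, as 34 genes of 6 groups. These are the signal recognition particle (SRP) with its receptor, the Sec61 channel with Sec62 and Sec63, and the TRAP complex. The others are the TRAM proteins, the signal peptidase and the oligosaccharyltransferase. All 34 had a feature of their own on the arrays, among 18820 genes measured in all. Primary hepatocytes from male wildtype C57BL/6J mice of 8 to 10 weeks were plated in 60 mm dishes and received an adenovirus for green fluorescent protein (Ad-GFP, the control) or for the N-terminal, nuclear fragment of CREBH (Ad-nuclear CREBH), a transcription factor otherwise released from the ER membrane by cleavage in the Golgi apparatus. The dose was 100 viral particles per cell in both groups. After 24 h, RNA from 3 dishes of each group was read on 1 Affymetrix Mouse Gene ST array per dish. The study used the arrays to look for genes other than Fgf21 that answer to CREBH in hepatocytes.

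A ribosome that begins to make a secreted or membrane protein is halted by SRP, brought to the SRP receptor in the ER membrane and docked on the Sec61 channel, where TRAP and TRAM assist the entry of some proteins. Signal peptidase then removes the signal peptide and oligosaccharyltransferase moves a preassembled glycan onto asparagine residues. Hepatocytes, which release most plasma proteins, carry a heavy load of this traffic.

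Creb3l3, the gene of CREBH, was at 8.49, 8.02 and 8.21 on the log2 scale in Ad-GFP dishes and at 9.97, 10.46 and 10.59 in Ad-nuclear CREBH dishes, so that the groups did not overlap. Transcripts of the virus and of the mouse gene cannot be told apart in this value. The sources do not state that the dishes came from different animals, so that all p-values measure the spread between dishes, which may be technical. In each group the array numbered 1 correlated least with the others of its group, and over the 6 arrays these mean correlations ran from 0.986 to 0.994. The hepatocyte genes Alb, Apob and Ttr were bright in both groups. Of 8 hepatocyte markers 3 (Fgb, Asgr1 and Cps1) fell, or 37.5%, against 18.2% of all genes. In a fit of only the genes at or above the median level, where all 8 lay, 31.5% fell. Of 8 macrophage markers 3 fell (37.5%) and 1 rose (12.5%), against 18.2% and 19.2% of all genes. The summed linear level of these 8 macrophage markers was 2644 to 3581 in the controls and 1160 to 2525 with Ad-nuclear CREBH. Cd68, the brightest of the 8 and so the heaviest in this sum, fell from a log2 mean of 11.49 to 10.35. Lyz2 and Marco, at control means of 6.28 and 5.93, also lay above the median of all genes in Ad-GFP dishes, 5.25. Csf1r and Cd5l lay below it in the controls, at 4.70 and 4.67. The defining genes Adgre1, Clec4f and Timd4 lay below it in both groups, at means of 3.08 to 5.05. For the remaining marker lists the summed levels in controls and with Ad-nuclear CREBH were 291 to 390 and 446 to 488 for 8 endothelial genes (1 rose, Egfl7), 126 to 141 and 137 to 341 for 8 stellate and fibroblast genes, 243 to 574 and 409 to 612 for 5 cholangiocyte genes (Epcam rose and Krt19 fell), and 65.9 to 75.6 and 69.3 to 73.8 for 7 leukocyte genes. RMA values never reach 0, so that absence cannot be read from them. The part of other cells in the results was not tested. In such bulk RNA, fewer cells of a type and less RNA per cell cannot be told apart.

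With Ad-nuclear CREBH, 24 of the 34 genes rose and 2 fell at a Benjamini-Hochberg adjusted p under 0.05 from limma, against 19.2% of all genes that rose and 18.2% that fell. The rises covered 6 of 7 genes of SRP and its receptor, 4 of 6 of the Sec61 group, all 4 TRAP genes, Tram1, 2 of 5 signal peptidase genes and 7 of 10 oligosaccharyltransferase genes. The genes that fell were Sec11c of the signal peptidase and Ddost of the oligosaccharyltransferase. With both arrays numbered 1 left out, 25 rose and 5 fell, as Tram2, Sec11a and Tusc3 also passed, while the shares of all genes were 23.3% and 25.3%. Without Ad-GFP replicate 2 or 3, Sec11c was the 1 gene of the 34 that fell, beside 14.1% and 14.4% of all genes. By size alone, 26 of the 34 genes had a log2 fold change above 0, where 55% of all genes were, and 8 of 34 above 1, where 9.51% of all genes were. The median log2 fold change of the 34 genes was 0.74, and that of all genes was 0.039. Centering each array on its median moved the median of all genes to 0.18 and the share of calls that were rises from 51.3% to 62.8%. The median of the 34 genes lay 0.70 above that of all genes, a difference that centering cannot alter, 0.60 above it after quantile normalization and 0.55 above it under cyclic loess.

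All 34 genes lay above the median level of all genes. Among the genes at least as bright as the dimmest of them, 31.8% rose. All 3 Ad-nuclear CREBH dishes lay above all 3 Ad-GFP dishes for 25 of the 34 genes and below them for 4, where the same held for 26.2% and 23.1% of all genes. Across the 34 genes the level in Ad-GFP dishes and the log2 fold change had a Pearson r of 0.091 and a Spearman rho of 0.0011, which describes genes of the same 6 arrays. The study's methods select genes by an unadjusted p under 0.001, an expression value above 300 and a fold change above 2 for Ad-CREBH or above 0.5 for Ad-GFP. The last was read here as a fold change below 0.5 and the level as a linear mean above 300 in at least 1 group, since the wording leaves both open. Read so, 8 of the 34 genes were upregulated and none was downregulated, against 4.91% and 3.10% of all genes. These were Srprb, Srp68, Sec61b, Sec62, Ssr1, Tram1 and Magt1 together with Srp14. When both group means had to exceed 300, Srp68, Srprb, Sec62, Ssr1 and Tram1 were upregulated, 5 of 34, and none was downregulated, against 1.96% and 0.855% of all genes.

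**Figure D1:**
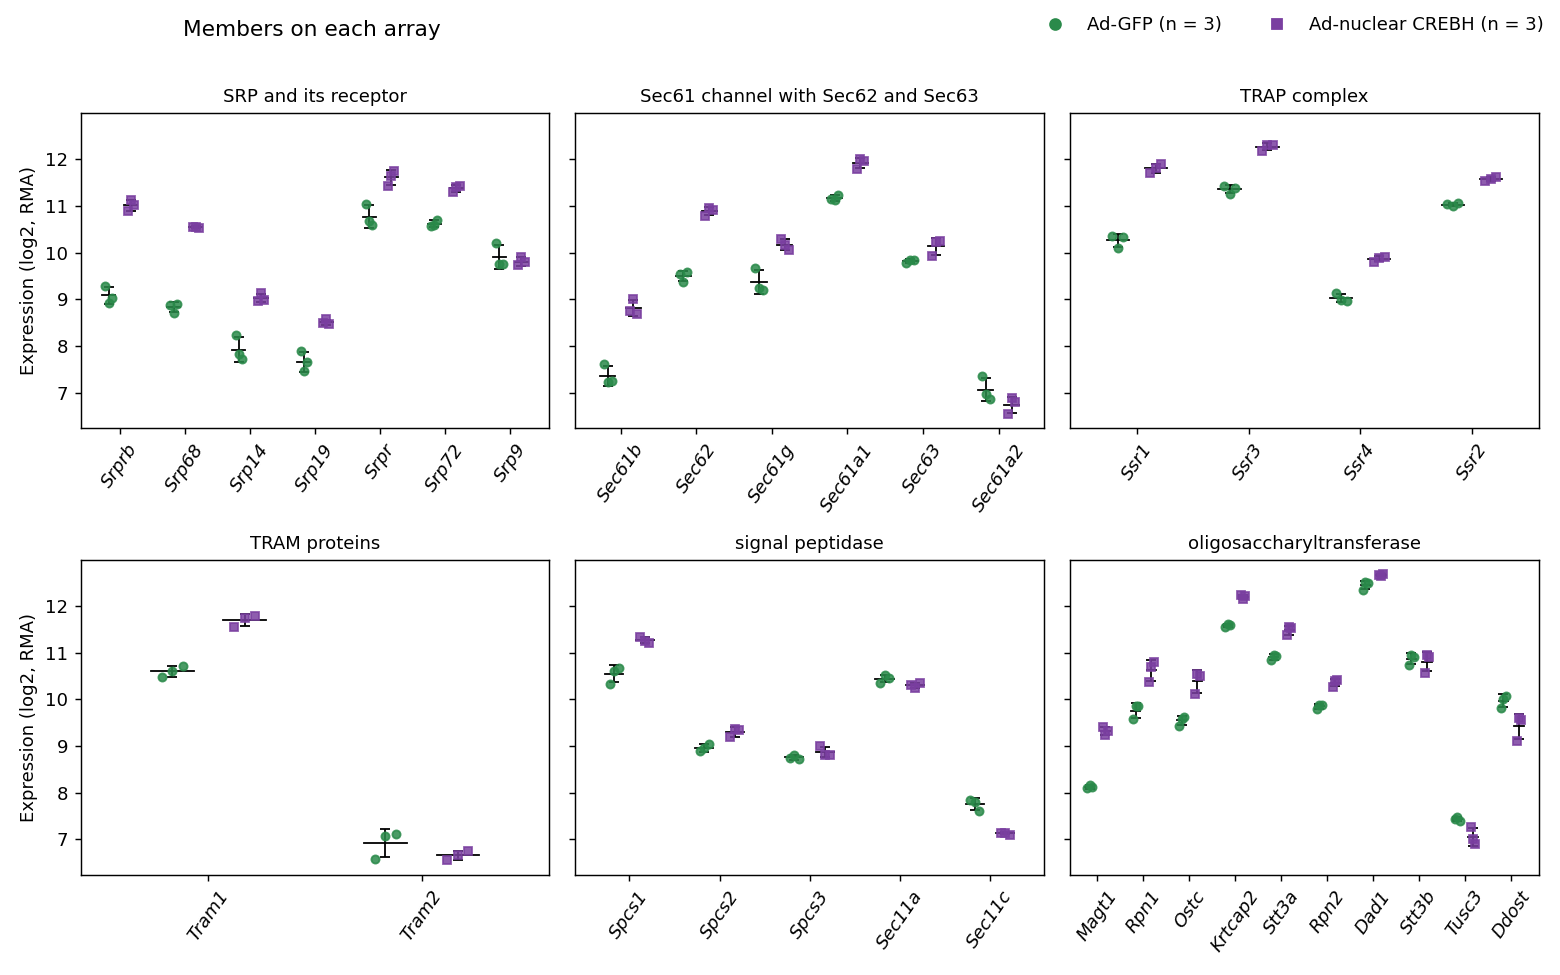
Expression (log2, RMA) of the 34 genes, in a panel for each complex, in Ad-GFP dishes (green circles) and Ad-nuclear CREBH dishes (purple squares), with the mean and SD of 3 dishes as black bars. All 4 TRAP genes and 6 of 7 genes in the SRP panel have 3 purple squares above 3 green circles. Sec11c, Ddost, Sec11a and Tusc3 have them below, of which Sec11a and Tusc3 did not pass at an adjusted p under 0.05 (limma).

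The promoters of some of the genes that rose are shown because these genes moved together and because factors of the CREB and ATF family and of the ER stress response bind short elements with an ACGT or CCACG core. RefSeq promoter windows of the GRCm38.p6 build, from 250 bases before to 50 after the start of the gene, were on hand for 25 of the 34 genes, 18 of which rose. Each window was searched on both strands for TGACGTGG, for the cyclic AMP response element TGACGTCA, for the shorter runs TGACGTG and then GTGACGT, for CCACG and for the ER stress response elements ERSE (CCAAT and then, 9 bases on, CCACG) and ERSE-II (ATTGG, then 1 base, then CCACG). The search for ERSE-II was added after the promoters were seen, because the pattern first chosen began with ATTG and so was 1 base short of the element. CCACG is contained in both ER stress elements and, read on the opposite strand, in TGACGTGG, which also contains TGACGTG. The 200 bases before the start are printed 5′ to 3′ on the strand of the gene, with all matches in capitals, for the 6 genes that rose and held the most kinds of the elements first chosen, ties going to the larger rise.

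Srpr, chr9:35211003-35211202, plus strand: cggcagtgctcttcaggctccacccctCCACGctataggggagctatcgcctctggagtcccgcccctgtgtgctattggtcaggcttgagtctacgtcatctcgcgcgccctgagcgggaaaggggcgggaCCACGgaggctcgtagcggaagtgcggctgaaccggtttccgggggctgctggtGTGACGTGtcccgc
Srprb, chr9:103202066-103202265, minus strand: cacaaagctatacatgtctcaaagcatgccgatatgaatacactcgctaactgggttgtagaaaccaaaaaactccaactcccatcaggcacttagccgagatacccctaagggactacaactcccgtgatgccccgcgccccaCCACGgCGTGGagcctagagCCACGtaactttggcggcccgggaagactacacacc
Ssr1, chr13:37994209-37994408, minus strand: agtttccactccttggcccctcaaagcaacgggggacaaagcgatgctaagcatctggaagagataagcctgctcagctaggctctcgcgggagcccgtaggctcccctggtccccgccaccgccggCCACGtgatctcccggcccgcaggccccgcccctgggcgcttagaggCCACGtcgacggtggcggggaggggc
Ssr3, chr3:65392554-65392753, minus strand: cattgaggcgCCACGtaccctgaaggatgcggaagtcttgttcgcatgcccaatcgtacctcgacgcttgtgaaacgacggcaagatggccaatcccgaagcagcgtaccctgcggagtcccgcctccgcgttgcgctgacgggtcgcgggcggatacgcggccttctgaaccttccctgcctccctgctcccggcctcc
Rpn1, chr6:88084273-88084472, plus strand: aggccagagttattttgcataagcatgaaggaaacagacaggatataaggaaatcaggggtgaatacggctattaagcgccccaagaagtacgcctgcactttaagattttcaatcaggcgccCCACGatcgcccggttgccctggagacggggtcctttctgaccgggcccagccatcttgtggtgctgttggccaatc
Spcs1, chr14:31001667-31001866, minus strand: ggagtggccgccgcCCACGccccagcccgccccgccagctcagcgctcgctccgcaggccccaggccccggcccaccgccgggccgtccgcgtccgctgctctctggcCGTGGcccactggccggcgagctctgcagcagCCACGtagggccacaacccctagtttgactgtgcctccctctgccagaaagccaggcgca

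Srpr held TGACGTG and GTGACGT, which overlap 13 and 14 bases before its start, and CCACG at 3 places, of which 2 lie in the stretch printed. CCACG lay in the promoters of 17 of the 25 genes, 68% of them, and of 43.1% of the 14749 measured genes with a window. It was in 10 of the 18 genes that rose and in all 7 of those that did not, Ddost among them. TGACGTG and GTGACGT were each in 1 member and in 2.60% and 5.63% of measured genes. ERSE-II was found in Krtcap2, a subunit of the oligosaccharyltransferase that rose, from base 18 after 1 of its annotated starts, and in 0.061% of measured genes. No promoter of the 25 genes held TGACGTGG (0.922% of measured genes), TGACGTCA (2.77%), ERSE (0.136%) or the shorter ATTG pattern (0.0949%). A match describes letters and not a site that is bound.

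Of SRP and its receptor 6 of 7 genes rose, and the median log2 fold change of the 7 was 0.85. Srprb, the subunit that anchors the SRP receptor in the ER membrane, was at 9.29, 8.93 and 9.03 in Ad-GFP dishes and at 10.89, 11.12 and 11.02 in Ad-nuclear CREBH dishes. This 3.81-fold rise (log2 fold change 1.93, SE 0.12, adjusted p = 2.4e-05) was the largest of the 34 genes. Srp68, which binds the SRP RNA, rose 3.26-fold, from 8.88, 8.70 and 8.90 to 10.54, 10.56 and 10.51 (log2 fold change 1.71, SE 0.10, adjusted p = 2.2e-05). Their 95% intervals overlapped, from 1.64 to 2.21 for Srprb and from 1.47 to 1.94 for Srp68. Srp72, the partner of Srp68 in the particle, rose by 0.75 on the log2 scale (SE 0.083, adjusted p = 2.2e-04), and its interval of 0.56 to 0.95 lay below that of Srp68.

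The remaining measured genes of the particle and its receptor did not move alike. Srp54a, Srp54b and Srp54c, which also belong to the particle, had no feature of their own and are not in these counts. Srp14 and Srp9 form the domain that slows the ribosome. Srp14 rose 2.14-fold, from 8.23, 7.83 and 7.72 in the controls to 8.97, 9.12 and 8.98 (SE 0.16 on the log2 scale, adjusted p = 8.8e-04), whereas Srp9 was at 10.20, 9.76 and 9.75 and at 9.72, 9.90 and 9.79 (log2 fold change -0.097, 95% interval -0.42 to 0.23, adjusted p = 0.651). The groups overlapped for Srp9, and its dimmer second feature was at -0.26 (adjusted p = 0.328 in a fit of all features with 1 gene). Srp19, which helps assemble the particle, rose by 0.85 (adjusted p = 0.0021), and Srpr, the GTPase subunit of the receptor, by 0.84 (adjusted p = 0.0020).

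The Sec61 channel is built from an alpha subunit that forms the pore and the small beta and gamma subunits. Sec61b, the beta subunit, was at 7.603, 7.234 and 7.246 in the controls and at 8.743, 9.008 and 8.685 with Ad-nuclear CREBH, a 2.73-fold rise (log2 fold change 1.45, SE 0.16, adjusted p = 2.1e-04). Its other features rose by 1.40 and 1.37. Sec61g, the gamma subunit, rose by 0.80 (SE 0.15, adjusted p = 0.0032), and 3 further features assigned to it rose by 0.73 to 0.77. Whether a feature of such a short gene also reads processed copies elsewhere in the genome cannot be told from these values.

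The alpha subunit is encoded by a pair of genes. Sec61a1, the widely used form, rose from 11.14, 11.13 and 11.23 to 11.80, 11.99 and 11.97 (log2 fold change 0.75, SE 0.082, adjusted p = 2.1e-04). Sec61a2 was at 7.35, 6.98 and 6.87 in Ad-GFP dishes and at 6.55, 6.88 and 6.80 in Ad-nuclear CREBH dishes (log2 fold change -0.32, 95% interval -0.73 to 0.088, adjusted p = 0.206), and 1 value overlapped between the groups. Sec62 and Sec63 join the channel for proteins that enter after their synthesis or with weak signals. Sec62 rose 2.61-fold, from 9.55, 9.38 and 9.57 to 10.79, 10.95 and 10.91 (log2 fold change 1.38, SE 0.10, adjusted p = 3.7e-05), with a second, dim feature at 0.48 (adjusted p = 0.0547). Sec63, whose J domain recruits the chaperone BiP, was at 9.78, 9.84 and 9.84 and at 9.91, 10.23 and 10.25. Its groups did not overlap, but its log2 fold change of 0.31 (SE 0.12) had an adjusted p of 0.0710, which was 0.0108 without Ad-nuclear CREBH replicate 1.

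Every gene of the TRAP complex, whose 4 subunits sit beside the channel, rose. Ssr1, the alpha subunit, was at 10.35, 10.10 and 10.33 in Ad-GFP dishes and at 11.70, 11.82 and 11.89 in Ad-nuclear CREBH dishes, a 2.90-fold rise (log2 fold change 1.54, SE 0.10, adjusted p = 2.5e-05). Ssr3, the gamma subunit, followed with 11.42, 11.25 and 11.38 against 12.18, 12.30 and 12.31 (log2 fold change 0.92, SE 0.078, adjusted p = 6.7e-05). Ssr4 and Ssr2, the delta and beta subunits, rose by 0.84 (adjusted p = 4.2e-04) and 0.55 (adjusted p = 5.7e-04). The interval of Ssr1, from 1.31 to 1.77, lay above those of the other subunits. Tram1, a membrane protein that contacts entering chains, rose 2.14-fold, from 10.48, 10.61 and 10.71 to 11.55, 11.75 and 11.79 (log2 fold change 1.09, SE 0.10, adjusted p = 9.4e-05). Its relative Tram2 was at 6.57, 7.08 and 7.11 and at 6.57, 6.66 and 6.76 (log2 fold change -0.26, 95% interval -0.68 to 0.16, adjusted p = 0.311), and the Ad-GFP array numbered 1 lay among the Ad-nuclear CREBH values. Without that array its log2 fold change was -0.44 (adjusted p = 0.0246).

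**Figure D2:**
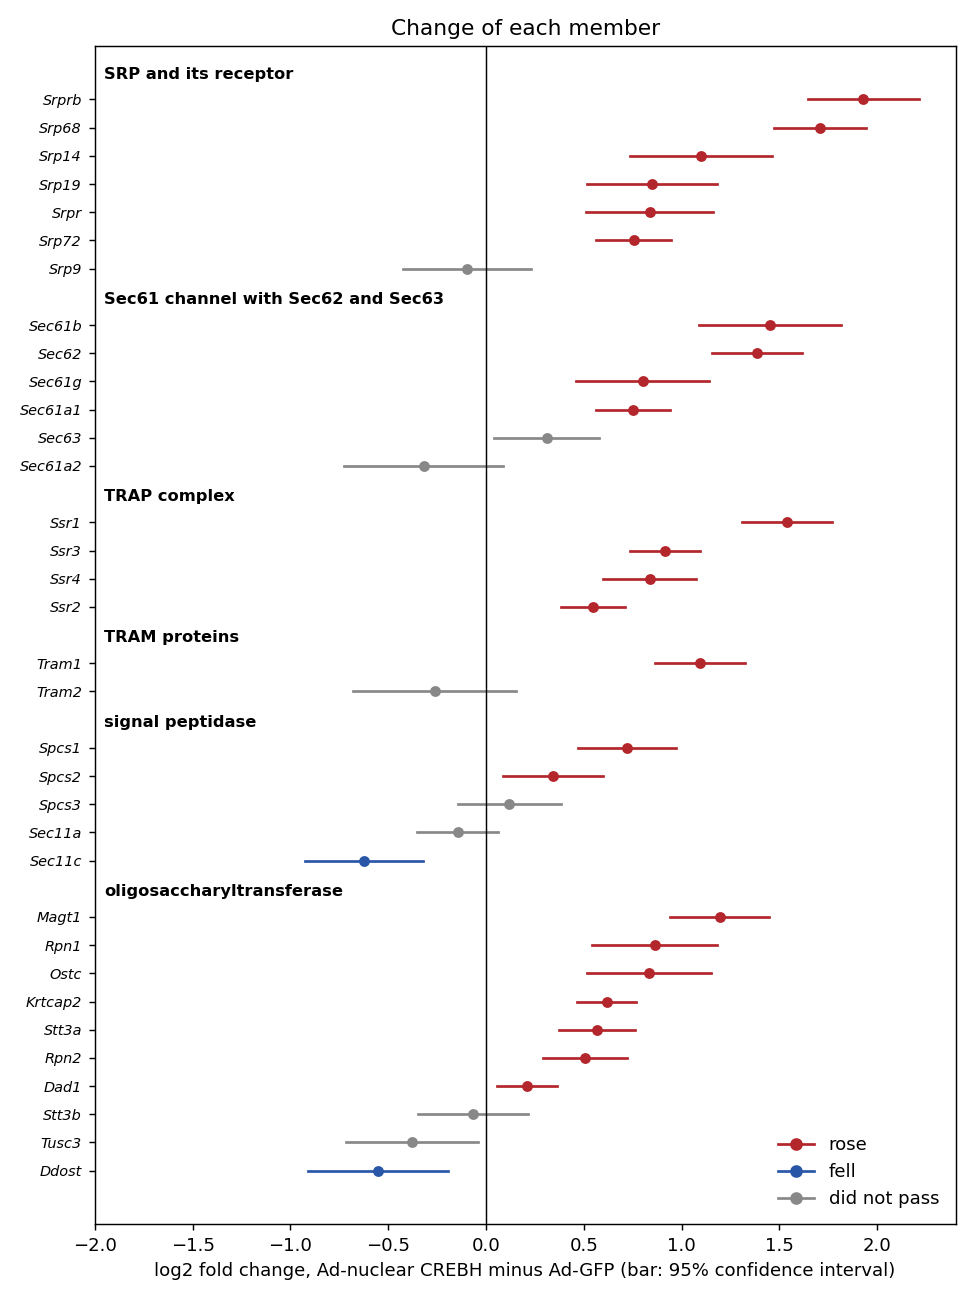
Log2 fold change of each of the 34 genes, Ad-nuclear CREBH minus Ad-GFP, with its 95% confidence interval from limma (n = 3 dishes each), grouped by complex; red marks genes that rose, blue those that fell and grey those that did not pass. Srprb stands farthest to the right at 1.93, and Sec11c and Ddost are the blue points at -0.62 and -0.55.

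The signal peptidase had the lowest median log2 fold change of the 6 groups, 0.12 over 5 genes. The genes that rose, Spcs1 and Spcs2, encode accessory subunits. Spcs1 rose from 10.33, 10.61 and 10.68 to 11.34, 11.25 and 11.20 (log2 fold change 0.72, SE 0.11, adjusted p = 0.0011), and Spcs2 was 0.34 higher (adjusted p = 0.0417), a call that was lost after quantile normalization (adjusted p = 0.175), under cyclic loess (adjusted p = 0.0706) and without 4 of the 6 arrays in turn (adjusted p 0.0783 to 0.152), namely Ad-GFP replicates 2 and 3 and Ad-nuclear CREBH replicates 2 and 3. Spcs3, another accessory subunit, was 0.12 higher (95% interval -0.14 to 0.38, adjusted p = 0.471).

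The catalytic subunits of the signal peptidase are Sec11a and Sec11c. Sec11c fell to 0.65 of its control level, from 7.85, 7.80 and 7.61 to 7.13, 7.15 and 7.10 (log2 fold change -0.62, SE 0.13, adjusted p = 0.0062). Sec11a was at 10.36, 10.52 and 10.46 in the controls and at 10.31, 10.24 and 10.34 with Ad-nuclear CREBH, where all 3 values were lower (log2 fold change -0.15, 95% interval -0.35 to 0.063, adjusted p = 0.261). It passed as a fall after quantile normalization, at -0.34 (adjusted p = 0.0162), whereas with each array centred on its median it was at -0.0032 (adjusted p = 0.981).

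Oligosaccharyltransferase exists in a pair of forms with different catalytic subunits. The form with STT3A works at the channel during entry, and that with STT3B acts on sites the former has missed. The genes particular to the STT3A form rose. Stt3a was at 10.83, 10.95 and 10.94 in the controls and at 11.37, 11.54 and 11.52 with Ad-nuclear CREBH (log2 fold change 0.57, SE 0.084, adjusted p = 0.0011). Ostc and Krtcap2, small subunits that tie this form to the channel, rose by 0.83 (SE 0.14, adjusted p = 0.0018) and 0.62 (SE 0.066, adjusted p = 1.9e-04).

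Of the genes particular to the STT3B form, Magt1 rose, and Tusc3 and Stt3b did not pass. Magt1, an oxidoreductase subunit, had the largest rise of the enzyme, 2.29-fold, from 8.09, 8.16 and 8.12 to 9.40, 9.24 and 9.32 (log2 fold change 1.20, SE 0.11, adjusted p = 9.6e-05). Tusc3, which takes the place of Magt1 in this form, was at 7.44, 7.47 and 7.39 and at 7.27, 7.01 and 6.89, all lower (log2 fold change -0.38, SE 0.15, adjusted p = 0.0774). Without Ad-nuclear CREBH replicate 1 its adjusted p was 0.0269. Stt3b was at 10.74, 10.96 and 10.91 in the controls and at 10.57, 10.94 and 10.91 with Ad-nuclear CREBH, which overlapped (log2 fold change -0.067, 95% interval -0.35 to 0.21, adjusted p = 0.721).

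Subunits shared by both forms went different ways. Rpn1 and Rpn2, the ribophorins, rose by 0.86 (from 9.57, 9.85 and 9.85 to 10.37, 10.69 and 10.79; SE 0.14, adjusted p = 0.0017) and 0.51 (adjusted p = 0.0033). Ddost, the subunit OST48, fell to 0.68 of its control level, from 9.81, 10.01 and 10.08 to 9.10, 9.59 and 9.56 (log2 fold change -0.55, SE 0.15, adjusted p = 0.0238). The call of Ddost was lost without Ad-GFP replicate 2 (adjusted p = 0.0754) or replicate 3 (adjusted p = 0.0863). Dad1 was at 12.35, 12.52 and 12.48 and at 12.66, 12.63 and 12.68, a rise of 0.21 (SE 0.066, adjusted p = 0.0386) that turned to -0.054 under cyclic loess (adjusted p = 0.673). It also missed the threshold without any 1 of Ad-GFP replicates 2 and 3 and the 3 Ad-nuclear CREBH arrays (adjusted p 0.0576 to 0.123). It missed it as well without the intensity trend (adjusted p = 0.152) and with a robust variance prior (adjusted p = 0.0554).

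The paralogs within these complexes changed unequally. On each array the log2 value of one paralog was subtracted from that of the other, which removes whatever the array gives both genes alike. The log2 ratio of Magt1 to Tusc3 was 0.65, 0.69 and 0.73 in the controls and 2.13, 2.23 and 2.42 with Ad-nuclear CREBH, a change of 1.57. The log2 ratio of Tram1 to Tram2 changed by 1.36 and that of Sec61a1 to Sec61a2 by 1.07. The change was 0.63 for Stt3a and Stt3b, from 0.094, -0.0048 and 0.022 to 0.80, 0.60 and 0.61. It was 0.48 for Sec11a and Sec11c, from 2.51, 2.71 and 2.85 to 3.18, 3.09 and 3.24. The 3 Ad-nuclear CREBH dishes lay above the 3 Ad-GFP dishes for each of the 5 pairs compared. The exact two-sided permutation test gave p = 0.1 for each pair, the smallest that 3 dishes against 3 allow, and 0.1 after adjustment over the 5 pairs. All 5 changes kept their sign in each alternative run, with the smallest value, 0.25, for Sec11a and Sec11c under cyclic loess and after quantile normalization, where the groups of that pair overlapped (exact p = 0.2). These values describe features of different genes, so that the level of a ratio has no meaning of its own. Sec61a2, Tram2, Tusc3 and Sec11c were dimmer than their partners, at means of 6.90, 6.79, 7.24 and 7.44 over all arrays. Changes of dim genes can be understated.

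**Figure D3:**
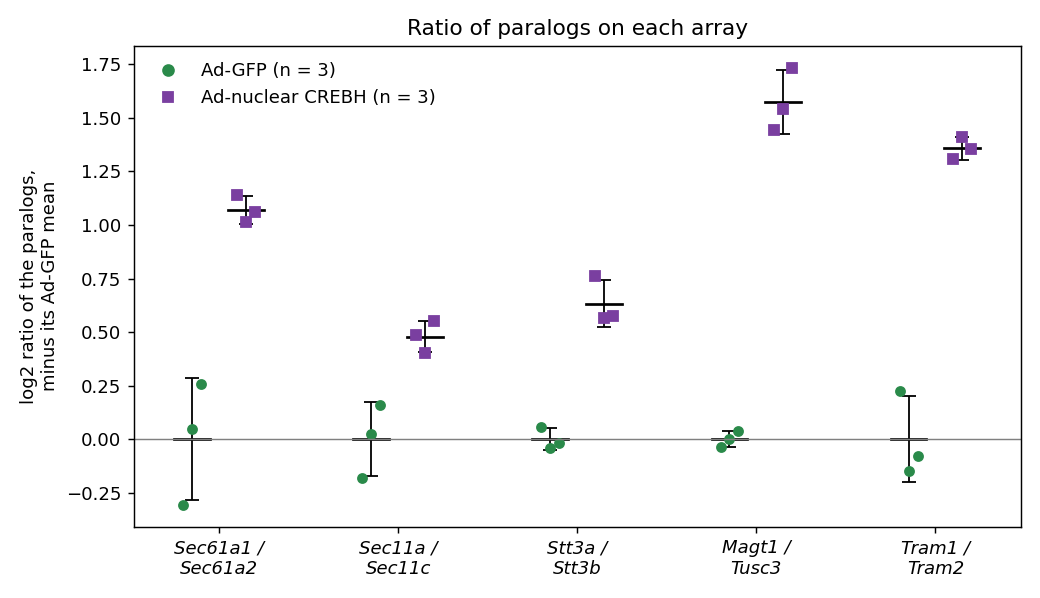
Log2 ratio of 5 pairs of paralogs on each array, minus the mean of the Ad-GFP dishes of that pair, in Ad-GFP (green circles) and Ad-nuclear CREBH dishes (purple squares), with the mean and SD of 3 dishes as black bars. The purple squares lie above the green circles for every pair, with mean changes from 0.48 for Sec11a and Sec11c to 1.57 for Magt1 and Tusc3.

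Other genes that work at the same membrane moved in both directions. In lists for the neighbouring steps, 51 of 61 genes were measured, with a median log2 fold change of 0.073. Of these 14 rose (27.5%), 15 fell (29.4%) and 22 did not pass, against 19.2% of all genes that rose and 18.2% that fell. In a fit of only the genes at or above the median level, 30.8% rose and 31.5% fell, so that movement in both directions was common among genes of such brightness. Few of the remaining subunits of the complexes themselves were measured. Tmem258 of the oligosaccharyltransferase rose by 0.65 (adjusted p = 0.0086), while Ost4 was 0.25 higher (adjusted p = 0.0519) and Tram1l1 0.073 higher (adjusted p = 0.538).

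Of 5 genes of the GET pathway, which inserts proteins with a C-terminal anchor, 3 fell and 1 rose. These were 60% and 20% of the list, against 18.2% and 19.2% of all genes. Get1, the receptor subunit in the membrane, fell by 1.76 on the log2 scale (SE 0.21, adjusted p = 3.6e-04) and Get3, the targeting ATPase, fell by 1.03 (adjusted p = 1.6e-04), whereas Get4 rose by 0.55 (adjusted p = 0.0136). The ER membrane protein complex, another insertase, had 3 falls and 2 rises among 9 genes (33.3% and 22.2%). In the fit of genes at or above the median level 31.5% fell and 30.8% rose. The falls were led by Emc9 at -1.27 (adjusted p = 0.0048) and Emc6 at -0.90 (adjusted p = 5.1e-04). The rises were Mmgt1 at 1.12 (adjusted p = 2.2e-04) and Emc3 at 1.02 (adjusted p = 8.7e-05). Of 6 genes of the multipass translocon, which joins Sec61 for proteins with many membrane spans, 3 fell (50%) and 1 rose (16.7%). Tmco1 was at -0.77 (adjusted p = 0.0028) and Ncln at -0.70 (adjusted p = 0.0131), and Tmem147 rose by 0.67 (adjusted p = 0.0060).

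The donor glycan that oligosaccharyltransferase transfers is built on dolichol, a membrane lipid. Of 21 measured genes of its assembly 7 rose (33.3%) and 2 fell (9.52%), against 19.2% and 18.2% of all genes. In the fit of genes at or above the median level 30.8% rose and 31.5% fell. Alg14, which helps add the second sugar, rose by 1.98 (SE 0.16, adjusted p = 4.7e-05) and the mannosyltransferase gene Alg11 by 1.07 (adjusted p = 1.6e-04), while the glucosyltransferase gene Alg8 fell by 0.98 (adjusted p = 0.0038) and Dolpp1, whose enzyme recycles the dolichol carrier, fell by 0.79 (adjusted p = 0.0244). Among 7 genes that trim the new glycan or read it, 2 rose (28.6%) and 4 fell (57.1%). Mogs, the glucosidase that removes the outermost glucose, rose by 1.89 (adjusted p = 6.6e-05) and Prkcsh, a subunit of the next glucosidase, by 0.69 (adjusted p = 0.0013). The glycoprotein sensor Uggt2 fell by 0.80 (adjusted p = 0.0066) and the lectin chaperone Canx by 0.78 (adjusted p = 1.1e-04).

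Targets of the unfolded protein response, which expands the ER when misfolded proteins build up, are a list close to the translocon genes. Of 19 measured, 7 rose (36.8%), 3 fell (15.8%) and 9 did not pass, against 19.2% and 18.2% of all genes. Their median log2 fold change was 0.19. In the fit of genes at or above the median level 30.8% rose and 31.5% fell. Ad-GFP replicate 1 stood above replicates 2 and 3 for all of these measured targets except Xbp1, Syvn1, Pdia6 and Edem1. It was the lowest for Pdia6 and Edem1. Ppp1r15a was at 8.17, 6.28 and 6.45 in Ad-GFP dishes (log2 fold change 1.27, adjusted p = 0.0559). Sdf2l1 was at 9.11, 8.01 and 8.06 (log2 fold change 0.77, adjusted p = 0.0739), and Creld2 at 10.77, 9.66 and 9.75. Edem1, of ER-associated degradation, rose by 1.37 (adjusted p = 4.5e-05) and Chac1 by 1.34 (adjusted p = 7.8e-04), whereas the disulfide isomerase gene Pdia6 fell by 1.46 (adjusted p = 2.2e-05) and Creld2 by 1.27 (adjusted p = 0.0068). Hspa5, the gene of the chaperone BiP, had means of 12.60 and, with Ad-nuclear CREBH, 12.79 (log2 fold change 0.19, adjusted p = 0.105). Of 16 genes of the COPII coat, which buds vesicles from the ER, 12 rose (75.0%) and none fell, against 19.2% and 18.2% of all genes. Their median log2 fold change was 1.19. The largest rises were those of Sec16b, by 2.21 (adjusted p = 3.7e-05), and Sec24a, by 1.91 (SE 0.20, adjusted p = 1.6e-04).

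**Figure D4:**
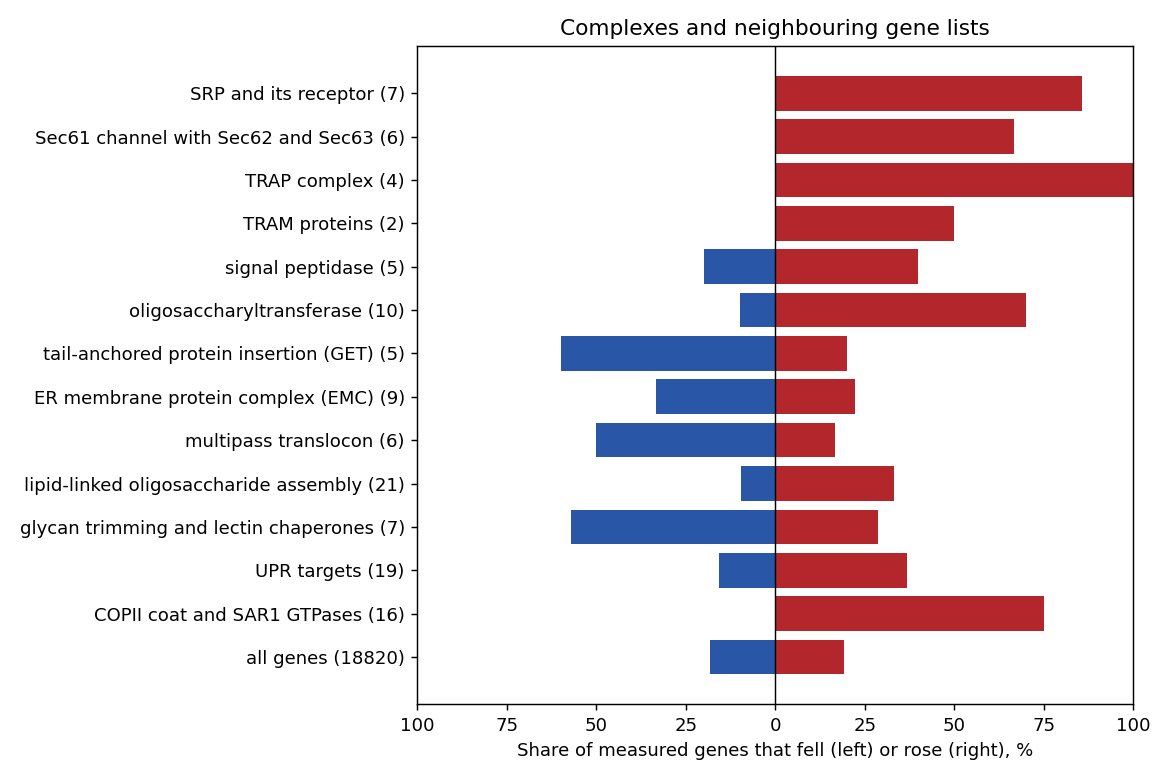
Share of the measured genes that fell (blue, left) or rose (red, right) in Ad-nuclear CREBH relative to Ad-GFP dishes, in percent (limma, adjusted p under 0.05), for the 6 complexes, 5 lists of neighbouring steps, the unfolded protein response (UPR) targets, the COPII coat and all genes, with the number measured in parentheses. Rises reach 100% in the TRAP complex, 85.7% in SRP and its receptor and 75.0% in the COPII coat, against 19.2% of all genes, and falls reach 60.0% in the GET list.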

How the data were processed

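RNA of 3 Ad-GFP and 3 Ad-nuclear CREBH dishes was measured on 6 arrays, grouped by their labels. The authors deposited log2 values from RMA, a method with background correction, quantile normalization and a summary of each feature's probes. The submitters' processing notes name it without a version, and for the definition of the features the sources used here give nothing. RMA narrows large changes and gives no flag for background, so that fold changes of dim or very bright genes can be understated. Symbols came from the platform annotation. Of 35556 features 21218 carried exactly 1 symbol, and the brightest feature on average was kept for each of 18820 genes.

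Groups were compared in R 4.3.3 with limma 3.58.1 (lmFit, eBayes with an intensity trend, 4 residual and 3.97 prior degrees of freedom), with Benjamini-Hochberg adjustment over all 18820 genes. An intensity-based moderated statistic, as named in the study's methods, was an alternative. The genes and lists were chosen with earlier results of these data known. Values on each array are given for the 2 largest changes of each complex that passed, for every gene that fell, for paralog pairs and for Creb3l3. Srp9, Srp14, Sec63 and Dad1 were added after their values were seen. Each list is given by up to 2 rises and 2 falls. Ppp1r15a and Sdf2l1, and the Ad-GFP values of Creld2, were also added after they were seen. Of the 34 genes, 9 had no RefSeq window. Figures were drawn with matplotlib 3.10.9. The number of arrays limits the precision.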

Additional observations from a re-analysis of the deposited data

How the results depend on the processing

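Over 17 alternative settings (variance prior, statistic, array weights, replicate block, normalization, features per gene, level filter and arrays left out), 22 of the 24 genes that rose passed each time. The exceptions were Spcs2 and Dad1, and the count of rises stayed between 22 and 25. The share of all genes that rose ran from 15.3% to 25.6%, and was 30.8% with genes below the median level left out. Sec11c passed as a fall each time and Ddost did not, while Sec63, Tram2, Sec11a and Tusc3 passed under some settings. Dad1 changed sign to -0.054 under cyclic loess. The number of genes that fell was 5 with array weights and 5 with both arrays numbered 1 left out, when Tram2, Sec11a and Tusc3 joined Sec11c and Ddost. The share of all genes that fell also went up, from 18.2% to 24.4% and 25.3%. The number of the 34 genes that fell was between 1 and 3 with 1 array left out, and 1 without Ad-GFP replicate 2 or 3. In these runs 14% to 21.5% of all genes fell. The median log2 fold change of the 34 genes was 0.68 with array weights, 0.67 with both arrays numbered 1 left out, 0.88 with each array centred on its median, 0.59 after quantile normalization, 0.55 under cyclic loess and between 0.67 and 0.74 with 1 array left out. Signal peptidase genes that rose numbered 1 after quantile normalization and under cyclic loess, and 1 to 2 with 1 array left out. With both group means above 300, 5 genes met the study's criteria (1.96% of all genes up, 0.855% down). With the replicate number as a block, 25 genes rose and 2 fell, since Sec63 passed, against 19.7% of all genes in each direction. Deviations of arrays that share a number correlated at 0.178, 0.0729 and 0.139, so that the numbers were not taken to pair the dishes. CCACG was in 11 of 25 promoters when the window began 100 bases before the start. The causes of these changes were not tested. The number of arrays and the lack of a background flag limit what can be read for dim features.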
